A study of Mus musculus with 70 samples.

Results

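The miR-10 family of the Hox clusters comes from 2 mouse precursors, Mir10a and Mir10b, and each precursor gives a 5p and a 3p arm. The members described here are the 4 names mmu-miR-10a-5p, mmu-miR-10b-5p, mmu-miR-10a-3p and mmu-miR-10b-3p (mmu, Mus musculus, is left out below), taken by name from a count table of 1882 mature miRNAs and candidate miRNAs, in which each of them had 1 entry. The family was selected on the values of miR-10a-5p, whose difference between microglia and other brain cells at 8 weeks and whose rise with age in microglia were already known from these counts. Differences of both miR-10a arms between the cell fractions, between microglial ages and between 8-week and younger bulk cells are therefore given as descriptions, with no test. The miR-10b arms joined the family by name. Tests are given for miR-10b-5p, for both miR-10a arms between P6 and P15 in bulk cells, for these 3 members between the sexes, and for relations across mice within an age and the bulk 5p share between P6 and P15, while miR-10b-3p was too scarce to test.

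MicroRNAs are short RNAs that guide Argonaute proteins to messenger RNAs, mainly through the seed, bases 2 to 8 counted from the 5′ end. The miR-10 genes lie inside the Hox clusters, the arrays of homeobox genes that set position along the head-to-tail axis, and miR-10 is best known in this setting for expression in the posterior embryo, including the hindbrain and spinal cord, and for targeting Hox messenger RNAs. In most precursors one arm accumulates as the mature miRNA while the other is largely degraded, and in the miR-10 precursors the 5p arm is the abundant one.

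Small RNA was sequenced from whole brains of wild-type C57BL/6 mice of both sexes at P6, P15 and 8 weeks (8W), with no treatment. Each brain was digested to single cells and split on a plate coated with anti-CD45 antibody into bound cells, called microglia here, and unbound CD45-negative bulk cells, mainly neurons, astrocytes and oligodendrocytes. CD45 marks leukocytes in general, so monocytes, other macrophages and lymphocytes can be in the bound fraction. The analysed set held 68 libraries from 34 mice: 4 female and 6 male mice at P6, and 6 of each sex at P15 and at 8W, with both fractions of every mouse. One further P6 female mouse, replicate 6, was left out because the study removed 1 mouse as an outlier and this mouse was taken to be it, being absent from the study's list of libraries.

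The 4 mature sequences are shown because the counts of the family rest on telling them apart. They are RefSeq sequences on GRCm38.p6, written 5′ to 3′ with the seed in capitals.
miR-10a-5p: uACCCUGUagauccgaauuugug
miR-10b-5p: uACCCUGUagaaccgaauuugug
miR-10a-3p: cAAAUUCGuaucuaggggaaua
miR-10b-3p: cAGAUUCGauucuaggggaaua
Both 5p arms carry the seed ACCCUGU and differ at 1 of 23 bases, U12A, with the miR-10a base first and positions counted from the 5′ end. Among 1679 mature names in the RefSeq table, these 2 were the only ones with that seed. The 3p arms differ at 3 of 22 bases, A3G, U9A and A10U, and the first of these lies inside the seed. The sequence relatives miR-99a-5p, miR-99b-5p and miR-100-5p share the start of the seed but differ from it at 3 of its positions, which gives ACCCGUA.

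On GRCm38, Mir10a occupies chr11:96317165-96317274 on the plus strand, between Hoxb5 and Hoxb4, and overlaps no other gene in GENCODE M21. Hoxb4 begins 992 bases beyond the hairpin and Hoxb5 ends 11043 bases before it. Mir10b occupies chr2:74726070-74726137 on the plus strand, inside introns of Hoxd3 and Hoxd4 transcripts, and overlaps no exon.

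Total counts ranged from 1678034 to 8747394 per library, so that 3 counts, taken as the floor, corresponded to between 0.343 and 1.79 CPM, the count scaled to a library total of 1000000 counts. The myeloid miRNAs miR-142a-3p, miR-142a-5p and miR-223-3p summed to between 10645 and 34889 CPM in the microglial libraries and between 106 and 503 CPM in the bulk libraries, without overlap. The microglial libraries also held neuronal miRNAs (miR-124-3p, miR-9-5p, miR-128-3p and miR-138-5p), whose summed level was 96861 to 225359 CPM at P6 and 44681 to 110501 CPM at 8W. None of the 24 marker miRNAs, lymphocyte miR-150-5p and erythroid, endothelial, mural, oligodendrocyte and choroid or ciliated markers included, was at 0 over any age and fraction.

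miR-10a-5p was the most abundant member in microglia and its level was higher at each later age. At P6 the 10 microglial libraries held between 21.9 and 49.1 CPM, with a median of 31.1 CPM. At P15 the 12 libraries held between 51.7 and 148 CPM, with a median of 99.4 CPM. At 8W the 12 libraries held between 184 and 324 CPM, with a median of 217 CPM. The ranges of the 3 ages did not overlap, and the mean at P15 was 3.03 times that at P6, while the mean at 8W was 7.57 times that at P6. On the log2 scale of the fitted model the differences were 1.70 ± 0.33 (SE) from P6 to P15, 1.68 ± 0.25 from P15 to 8W and 3.38 ± 0.32 from P6 to 8W. Of all 1072 features tested, 2.89%, 4.57% and 16.6% passed the threshold between the same pairs of ages in microglia, either way, where the threshold was a difference beyond 2-fold at a false discovery rate of 0.05. From P6 to 8W the summed neuronal miRNAs in the microglial libraries went in median from 169852 to 62686 CPM. Lymphocyte miR-150-5p went from a median of 664 CPM (369 to 814) to 2254 CPM (1202 to 4873), the oligodendrocyte sum from 759 to 1650 CPM and the choroid or ciliated sum from 2373 to 4559 CPM. In bulk cells miR-150-5p was higher at each age, with medians of 2026, 5117 and 6172 CPM at P6, P15 and 8W. Whether miR-150-5p marks lymphocytes here was not tested. The part of these microglial changes in the miR-10a-5p values was not tested either.

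In bulk cells miR-10a-5p did not follow the same course. The 10 P6 bulk libraries held between 0.457 and 55.4 CPM, with a median of 14.97 CPM, the P6 female mouse 5 being the lowest with 4 counts. The 12 P15 bulk libraries held between 11.4 and 72.6 CPM, with a median of 49.3 CPM. The 12 bulk libraries at 8W held between 5.67 and 81.7 CPM, with a median of 10.9 CPM. A single library, that of 8W female mouse 5, made the top of this last range, and the next highest held 32.2 CPM. In bulk libraries, fewer cells of a type and less RNA per cell cannot be told apart.

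**Figure D1:**
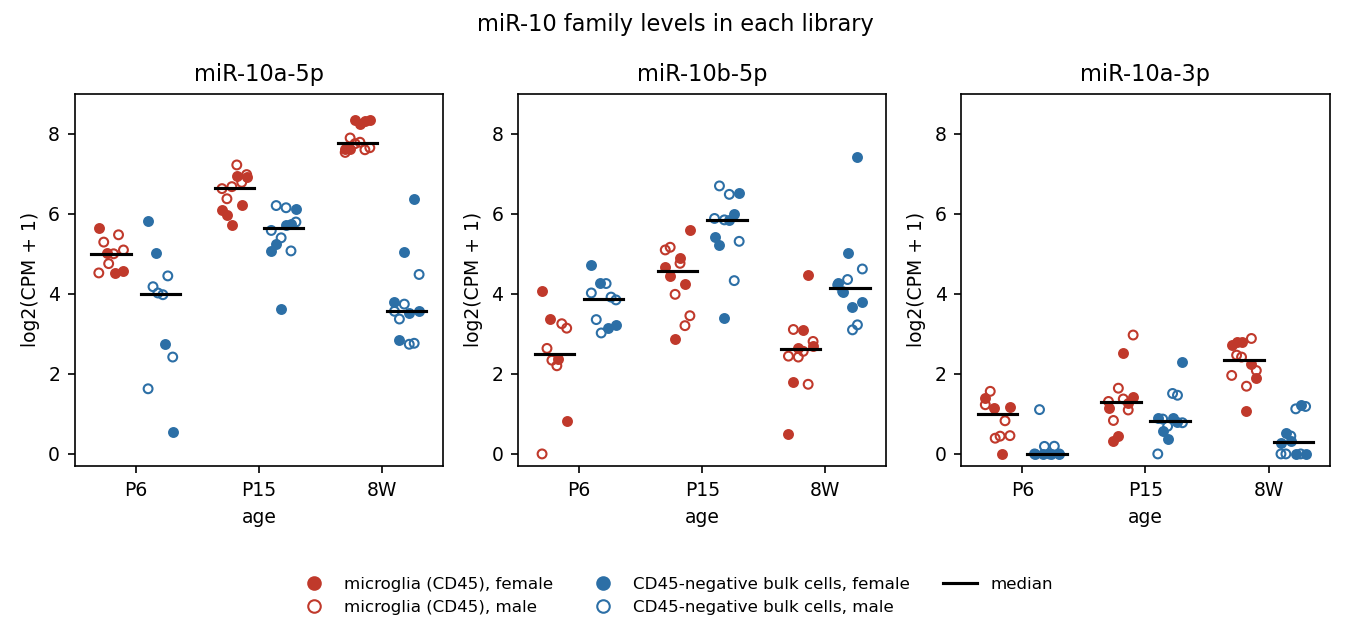
Level of the 3 more abundant members in each library, as log2(CPM + 1), at P6, P15 and 8W, for microglia (red) and CD45-negative bulk cells (blue), with females as filled and males as open points and the median of each group as a bar. The microglial miR-10a-5p points lie higher at each later age without overlap and lie above all bulk points at 8W, where they run from 184 to 324 CPM, while miR-10b-5p lies lower in microglia than in bulk cells at each age.

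Set against the bulk cells of the same mouse, miR-10a-5p was higher in microglia in 9 of 10 mice at P6, in 12 of 12 at P15 and in 12 of 12 at 8W. The mean CPM was 1.91 times that of bulk cells at P6, 2.03 times at P15 and 13.2 times at 8W (18.7 times without 8W female mouse 5), and the fractions did not overlap at 8W. The fitted log2 differences were 1.71 ± 0.38, 1.30 ± 0.26 and 4.27 ± 0.30. The P6 value was 1.10 without P6 female mouse 5, 0.87 in edgeR, 0.84 in DESeq2 and 1.03 with mice as fixed blocks. Without 8W female mouse 5 the difference at 8W was 4.44 ± 0.31. Of all features, 28.1% passed the threshold between the fractions at P6, 39.9% at P15 and 44.9% at 8W, in either direction.

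From P15 to 8W the means of the fractions moved apart. The microglial mean went from 96.5 to 241 CPM while the bulk mean went from 47.5 to 18.3 CPM. The fitted difference in enrichment was 2.97 ± 0.40 between those ages, 2.56 ± 0.49 between P6 and 8W (3.22 without P6 female mouse 5), and −0.41 ± 0.46 between P6 and P15. For these differences in enrichment 3.36%, 14.6% and 1.59% of all features passed the threshold. The value between P6 and P15 changed sign in edgeR, DESeq2 and the fit with mice as fixed blocks, so no direction is read from it.

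miR-10b-5p, with the same seed, was placed the other way round. It was lower in microglia than in the bulk cells of the same mouse in 10 of 10 mice at P6, 12 of 12 at P15 and 12 of 12 at 8W. The difference passed the test at 8W, at −1.99 ± 0.43 (limma-voom with TREAT, adjusted p = 0.0297), with a microglial mean 0.206 times the bulk mean, or 0.280 times it without 8W female mouse 5. Of all 1072 features, 44.9% passed between the fractions at 8W, 254 of them lower in microglia. At P6 it was −1.68 ± 0.55 (adjusted p = 0.293) and at P15 −1.05 ± 0.31 (adjusted p = 0.724), neither of which passed a test that asks for more than 2-fold. Tested against no change at all, the adjusted p was 0.00586 at P6, 0.00188 at P15 and 4.02e-05 at 8W. The call at 8W was lost without 8W female mouse 1 (−1.73, adjusted p = 0.0937), male mouse 1 or male mouse 3, and when no filter on low counts was applied (adjusted p = 0.0648), and it kept an adjusted p of 0.0327 without 8W female mouse 5.

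Per library, miR-10b-5p in microglia ran from 0 to 15.7 CPM at P6 (median 4.69), from 6.27 to 47.4 CPM at P15 (median 22.7) and from 0.402 to 21.2 CPM at 8W (median 5.10). The P6 library at 0, male mouse 1, and the 8W library of female mouse 1, with 2 counts, were at or under the floor, as was P6 female mouse 5 with 3 counts. In bulk cells the level ran from 7.11 to 25.1 CPM at P6 (median 13.7), from 9.46 to 102 CPM at P15 (median 56.4) and from 7.56 to 168 CPM at 8W (median 16.6). The 8W maximum was again female mouse 5, and the next highest 8W bulk library held 31.2 CPM. Individual libraries of the fractions overlapped at every age although each mouse had less in its microglia.

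In both fractions miR-10b-5p was highest at P15. In microglia it differed by 2.35 ± 0.58 between P6 and P15 (adjusted p = 0.267) and by −1.79 ± 0.47 between P15 and 8W (adjusted p = 0.559), and the levels at P6 and 8W lay close together (0.56 ± 0.65, adjusted p = 1). None of these passed the 2-fold test, and without a fold threshold the first pair had adjusted p = 0.000717 and 0.00119. The erythroid miRNAs (miR-451a, miR-144-3p, miR-144-5p and miR-486a-5p) also peaked at P15 in the microglial libraries, at 33990 to 107132 CPM against 8113 to 44378 CPM at P6 and 12598 to 39873 CPM at 8W, and their part in the miR-10b-5p values was not tested. The change of its enrichment with age did not pass either, at 0.63 ± 0.64 between P6 and P15, −0.94 ± 0.53 between P15 and 8W and −0.31 ± 0.70 between P6 and 8W (adjusted p = 1 for each).

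**Figure D2:**
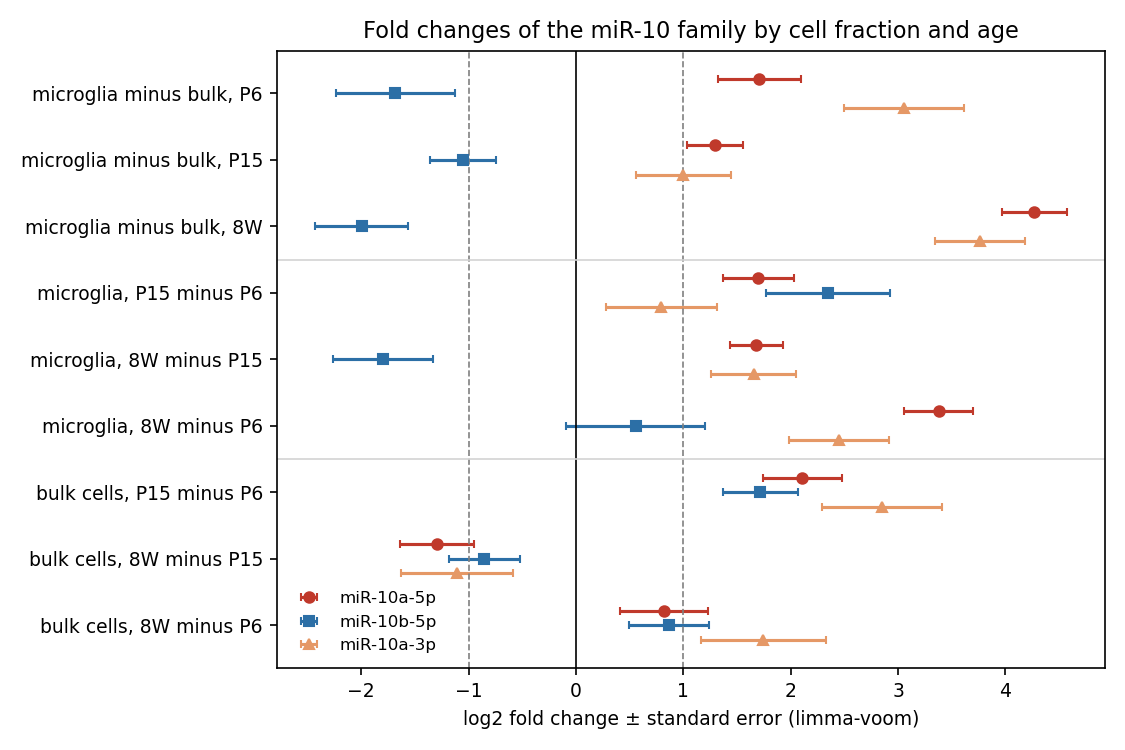
Log2 fold change with its standard error from the limma-voom fit for miR-10a-5p (circles), miR-10b-5p (squares) and miR-10a-3p (triangles), for each comparison of fractions or ages, with dashed lines at the 2-fold threshold. Both miR-10a arms lie to the right and miR-10b-5p to the left in all 3 comparisons of microglia with bulk cells, with the widest gap at 8W (4.27 against −1.99). Between ages in bulk cells the fitted values of the 3 members have the same sign. Of those tested there, only miR-10a-3p from P6 to P15 passed the threshold.

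In bulk cells P6 and P15 could be tested for 3 members. From P6 to P15 the fitted differences were 2.11 ± 0.37 for miR-10a-5p (adjusted p = 0.0520), 1.72 ± 0.35 for miR-10b-5p (adjusted p = 0.328) and 2.85 ± 0.56 for miR-10a-3p (adjusted p = 0.0227), so that 1 of the 3 passed against 3.54% of all features. In median, the oligodendrocyte sum in bulk cells went from 1896 to 17457 CPM between these ages, the myeloid sum from 127 to 326 CPM, the erythroid sum from 1976 to 5079 CPM and the endothelial sum from 27403 to 33338 CPM. miR-150-5p went from 2026 to 5117 CPM, the mural sum from 8450 to 10845 CPM and the choroid or ciliated sum from 11394 to 12127 CPM. The neuronal sum went from 341278 to 276539 CPM. The part of these markers in the members' values was not tested. The miR-10a-5p value stood at the edge of the threshold: it passed without 11 of 34 single mice and under 5 of 10 other alternatives, and its size ranged from 1.33 in edgeR and 1.52 without P6 female mouse 5 to 2.60 without P6 female mouse 1. The miR-10b-5p value passed without P15 female mouse 3 (2.02, adjusted p = 0.0373), which held the lowest P15 level of both 5p arms in bulk cells. From P15 to 8W the differences were −1.29 ± 0.35, −0.85 ± 0.33 and −1.10 ± 0.52 in the same order, where 11.0% of all features passed the threshold. Of the 3 members only miR-10b-5p is tested between these ages, and it did not pass (adjusted p = 1). Between P6 and 8W they were 0.82 ± 0.41, 0.87 ± 0.37 and 1.75 ± 0.58, where 25.7% of all features passed, and miR-10b-5p did not (adjusted p = 1). The miR-10a-5p value was 0.18 without P6 female mouse 5, 0.28 in edgeR and 0.24 in DESeq2. Leaving out 8W female mouse 5 moved the P15 to 8W differences to −1.49, −1.09 and −1.31. From P15 to 8W the endothelial sum in bulk cells went in median from 33338 to 16617 CPM and the myeloid sum from 326 to 219 CPM. The neuronal sum went from 276539 to 210581 CPM, the choroid or ciliated sum from 12127 to 9348 CPM and the erythroid sum from 5079 to 4414 CPM. The oligodendrocyte sum rose from 17457 to 25957 CPM, miR-150-5p from 5117 to 6172 CPM and the mural sum from 10845 to 11962 CPM. The part of these was not tested either.

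The 3p arms were scarce in every group. Over the 68 libraries the miR-10a precursor gave 24058 counts of its 5p arm and 444 of its 3p arm, so the 3p arm was 1.81% of both (95% exact binomial interval 1.65 to 1.99%). For miR-10b the numbers were 6821 and 66, or 0.958% (0.742 to 1.22%). These intervals cover counting error only. By age, the 3p share of miR-10a was 2.997% (2.03 to 4.25%) in microglia and 1.01% (0.523 to 1.76%) in bulk cells at P6, 1.92% and 2.14% at P15, and 1.69% and 2.05% at 8W, and the intervals of the fractions were apart at P6 and overlapped at P15 and 8W. The P6 bulk share rests on male mouse 2, with 10 of its 12 3p counts, and was 0.194% (2 of 1031 counts) without it.

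In microglia miR-10a-3p ran from 0 to 1.95 CPM at P6 (median 1.002), from 0.240 to 6.83 CPM at P15 (median 1.46) and from 1.11 to 6.38 CPM at 8W (median 4.06). In bulk cells it was at 0 in 7 of 10 libraries at P6, 1 of 12 at P15 and 5 of 12 at 8W, with highest values of 1.15, 3.91 and 1.33 CPM. At 8W all 12 mice had more of it in microglia, by 3.76 ± 0.42 on the log2 scale, against 7 of 12 mice at P15 (1.001 ± 0.445) and 9 of 10 at P6 (3.06 ± 0.56). In bulk cells at P6 only 1 library exceeded 3 counts, male mouse 2 with 10 of the group's 12 counts, so the change to P15 given above is one from a group at the floor. At P15, 6 of 12 bulk libraries were at or under 3 counts too. The change held its call under all 45 alternatives, with an adjusted p of at most 0.0480.

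miR-10b-3p did not pass the filter of 1 CPM in 5 libraries and was not tested in the fit. It was at 0 in 42 of 68 libraries, and 8W female mouse 5 held the highest value, 3.46 CPM in bulk cells. The other 3 members were tested. When the filter was dropped, its log2 differences between the fractions were 0.98 ± 0.49 at P6, −0.83 ± 0.51 at P15 and 0.01 ± 0.44 at 8W, from groups in which nearly all libraries were at or under 3 counts, and no fold is read from them.

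The balance of the 5p arms needs no scaling of the libraries. Between the fractions it is described only, because the family was chosen on miR-10a-5p. In microglia miR-10a-5p made up 86.2% ± 7.82 (SD, n = 10) of the summed 5p counts at P6, 81.1% ± 8.21 (n = 12) at P15 and 97.7% ± 1.49 (n = 12) at 8W. In bulk cells it made up 45.4% ± 23.9 (n = 10), 48.3% ± 6.97 (n = 12) and 41.0% ± 6.44 (n = 12). The lowest microglial library held 70.2%, and the highest bulk library held 68.8%, so with all ages pooled the fractions did not overlap, by a narrow margin. The P6 bulk libraries were spread far wider than the others, from 5.19% in female mouse 5 to 68.8%.

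Between P6 and P15 the mean bulk share differed by 2.94 percentage points (two-sided permutation test with 100000 resamples, p = 0.684), and the sign of this turned when counts were summed over the group first (−8.67 points). The 8W values are described only. From P15 to 8W the mean share differed by −7.32 points, and by −6.56 points without 8W female mouse 5, whose share was 32.7%. From P6 to 8W it differed by −4.39 points, and by −16.2 points on summed counts.

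**Figure D3:**
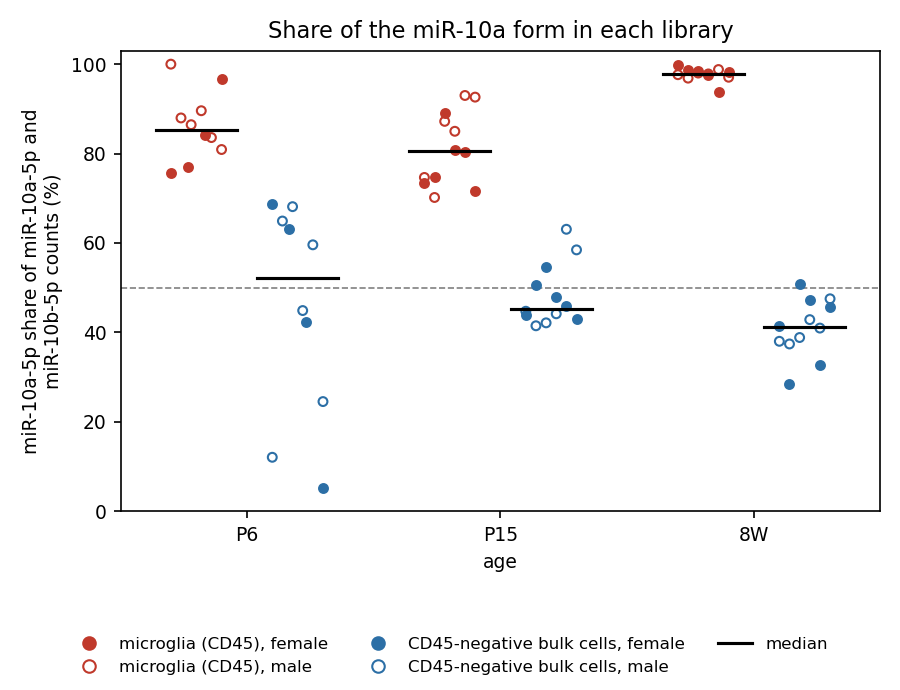
Share of miR-10a-5p in the summed counts of miR-10a-5p and miR-10b-5p (percent) in each library by age, for microglia (red) and bulk cells (blue), with females as filled and males as open points, the group median as a bar and a dashed line at 50%. All microglial libraries lie above all bulk libraries, the 8W microglia cluster near 98%, and the P6 bulk libraries run from 5.19 to 68.8%.

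Because 1 base separates the 5p arms, reads of one could be counted under the other name. How often that happened was not tested. The libraries with the most uneven counts, picked for that, are given as values, with intervals that cover counting error only. In the microglia of P6 male mouse 1 there were 49 counts of miR-10a-5p and 0 of miR-10b-5p, where the 95% exact interval of the miR-10b-5p share reaches 7.25%. In the microglia of 8W female mouse 1 there were 966 counts of miR-10a-5p and 2 of miR-10b-5p, and the interval reaches 0.744%. In the bulk cells of P6 female mouse 5 there were 73 counts of miR-10b-5p and 4 of miR-10a-5p, or 5.19% (1.43 to 12.8%). Counted as 1 feature, the sum of both arms stood at a microglia minus bulk difference of 2.998 ± 0.237 on the log2 scale at 8W, 0.45 ± 0.31 at P6 and 0.55 ± 0.22 at P15.

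Levels of the members were also compared across mice of the same age. In all, 18 relations were computed on log2(CPM + 1), with permutation p-values from 100000 resamples adjusted over all 18. Both 5p arms went together in bulk cells at P15 (Pearson r = 0.928, adjusted p = 0.00036, Spearman rho = 0.853, adjusted p = 0.00693) and at 8W (r = 0.943, adjusted p = 0.00036, rho = 0.916, adjusted p = 0.00234), each over 12 mice. Leaving out the pair of mice farthest from the median gave r = 0.830 and 0.813. In bulk cells at P6 the relation did not pass (r = 0.505, adjusted p = 0.209, rho = 0.491, adjusted p = 0.308, n = 10 mice by permutation). In microglia the 5p arms were related at P6 (r = 0.798, adjusted p = 0.0201, rho = 0.830, adjusted p = 0.0175) and at 8W (r = 0.631, adjusted p = 0.0384, rho = 0.678, adjusted p = 0.0472), with r = 0.676 and 0.768 without the farthest pair. At P15 they were not (r = 0.288, adjusted p = 0.382, rho = 0.231, adjusted p = 0.470).

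The level in one fraction of a mouse was related to that in its other fraction in 3 of 6 combinations of arm and age. For miR-10b-5p at P15, r was 0.852 (adjusted p = 0.00156) and rho 0.797 (adjusted p = 0.0133) over 12 mice, and r was 0.641 without the pair of mice farthest from the median. For miR-10a-5p, r was 0.767 at P6 (adjusted p = 0.0256, rho = 0.758, adjusted p = 0.0442) and 0.685 at P15 (adjusted p = 0.0256, rho = 0.566, adjusted p = 0.131). At 8W the values were r = 0.554 for miR-10a-5p (adjusted p = 0.104, rho = 0.385, adjusted p = 0.331) and 0.576 for miR-10b-5p (adjusted p = 0.153, rho = 0.252, adjusted p = 0.454), and they went to 0.0704 and 0.0945 without the farthest pair, so the 8W values rest on those mice. At P6, miR-10b-5p gave r = 0.380 (adjusted p = 0.342, rho = 0.442, adjusted p = 0.331). The fractions of a mouse come from 1 brain and 1 digestion. On TMM-scaled values, 3 relations no longer passed: the 5p arms in 8W microglia (r = 0.535, adjusted p = 0.133) and miR-10a-5p between the fractions at P6 (r = 0.729, adjusted p = 0.0505) and P15 (r = 0.531, adjusted p = 0.133).

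**Figure D4:**
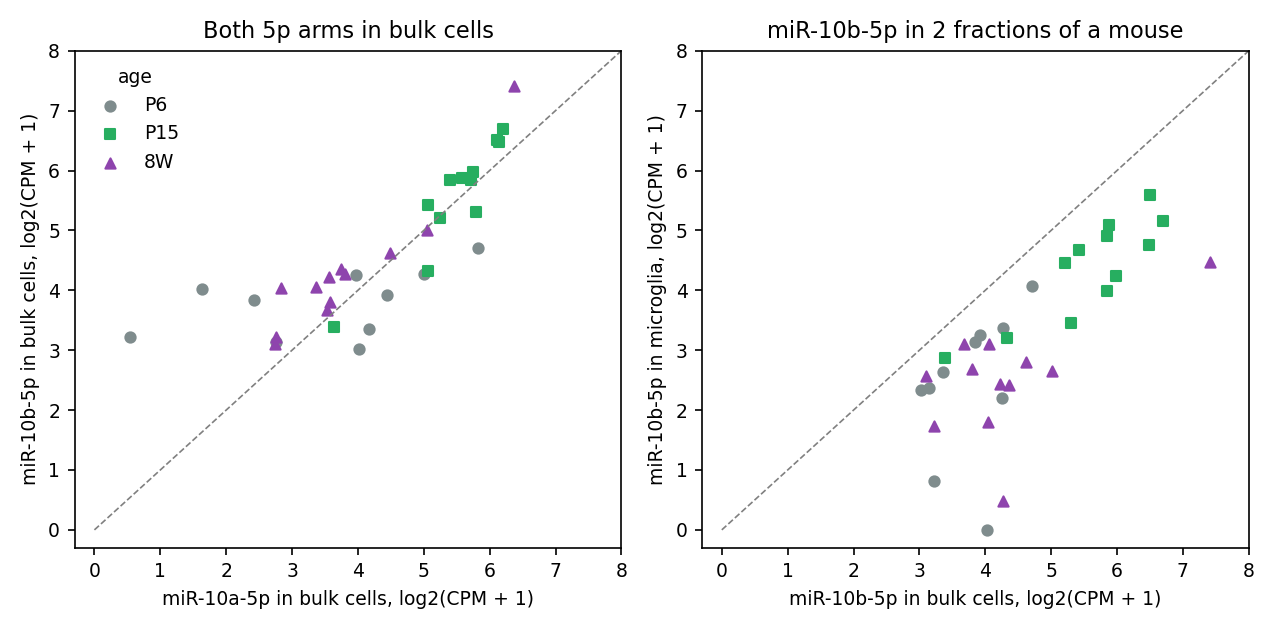
Left, miR-10b-5p against miR-10a-5p in the bulk cells of each mouse; right, miR-10b-5p in the microglia against the bulk cells of the same mouse; both as log2(CPM + 1), with P6 as circles, P15 as squares, 8W as triangles and a dashed line of equality. The arms rise together in bulk cells at P15 and 8W (r = 0.928 and 0.943), and in the right panel every mouse lies below the line of equality.

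The 5p and 3p arms of miR-10a were related across mice in microglia at P15 (r = 0.701, adjusted p = 0.0256, rho = 0.797, adjusted p = 0.0133, r = 0.503 without the farthest pair). In the remaining 5 combinations of age and fraction this relation did not pass, and r ran from −0.315 in microglia at 8W to 0.446 in bulk cells at 8W. The 3p arm rests on few counts per library here.

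Males and females did not differ detectably in the 3 members tested. Over 18 contrasts of 3 tested members within each age and fraction, TREAT called 0, edgeR 0 and DESeq2 0, and 0 had an unadjusted p under 0.05 without a fold threshold. Of all features 0% were called by TREAT in any of these contrasts. In 8W microglia miR-10a-5p ran from 193 to 324 CPM in 6 females and from 184 to 236 CPM in 6 males, with a male minus female difference of −0.45 ± 0.33.

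Of 7 listed names of other miRNAs from the Hox clusters, 3 passed the filter, namely miR-196a-5p, miR-196b-5p and miR-615-3p. miR-196b-5p, from the Hoxa9 region, was higher in microglia at P6 (4.79 ± 0.52, adjusted p = 3.99e-09, with 10 of 10 bulk libraries at or under 3 counts) and P15 (3.18 ± 0.36, adjusted p = 2.89e-07), and not past the threshold at 8W (1.26 ± 0.33, adjusted p = 0.402). Its mean in microglia was 3.44, 10.2 and 4.93 CPM at the 3 ages. miR-615-3p was lower in microglia at 8W (−2.72 ± 0.53, adjusted p = 0.00265), where 8 of 12 microglial libraries were at or under 3 counts. In bulk cells from P6 to 8W, miR-196b-5p rose by 4.74 ± 0.52 (adjusted p = 5.12e-09) and miR-196a-5p by 3.27 ± 0.60 (adjusted p = 0.00102), from bulk groups at P6 in which 10 and 8 of 10 libraries were at or under 3 counts. These 2 of the 3 passed where 25.7% of all features did. Between the fractions, 1 of the 3 was higher and 0 lower at P6 and P15, where 28.1% and 39.9% of all features passed. At 8W 1 of the 3 was lower and 0 higher, where 44.9% of all features were called.

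The relatives by sequence are the miR-99, miR-100 and miR-125 arms, and all 11 were tested. miR-99a-5p was higher in microglia at P15 (1.36 ± 0.07, adjusted p = 5.56e-06) and 8W (1.95 ± 0.07, adjusted p = 4.63e-20), with a mean of 10339 CPM in microglia and 2792 CPM in bulk cells at 8W. miR-100-5p was lower in microglia at 8W (−2.46 ± 0.17, adjusted p = 1.06e-11), with means of 170 and 948 CPM. At 8W 2 relatives were higher and 3 lower, 5 of 11 where 44.9% of all features were called, with a median of −0.58 against −0.10 over all features. Within this group too, names with the same seed, ACCCGUA, lay on opposite sides. In microglia between P6 and 8W, 1 relative fell, miR-125b-1-3p (−1.66 ± 0.20, adjusted p = 0.00662), and 0 rose, where 16.6% of all features were called. Without P6 female mouse 5, male mouse 2 or male mouse 3 the number that fell was 0, and without P6 male mouse 5 it was 2.

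The features most like each 5p arm were ranked by Spearman's rho of log2(CPM + 1) over the 34 libraries of a fraction, among those with a mean of at least 10 CPM, as a description across ages that share libraries and depth. In microglia, miR-10a-5p was closest to miR-455-3p (rho = 0.951), miR-664-3p (0.932), miR-24-3p (0.927), miR-146a-5p (0.927) and miR-1839-3p (0.925), of 481 compared. All 5 had a higher mean at each later age, as miR-455-3p had with 231, 735 and 1580 CPM. Within an age the rho with miR-455-3p was 0.139 at P6, 0.685 at P15 and 0.699 at 8W. miR-10b-5p in microglia was closest to miR-484 (0.746), miR-505-5p (0.681) and the arms miR-486a-5p (0.679), miR-486b-5p (0.674) and miR-486a-3p (0.662), the last 3 being erythroid miRNAs of near-identical copies whose reads cannot be told apart well. Within an age the rho with miR-486a-5p was 0.406 at P6, −0.231 at P15 and 0.294 at 8W.

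In bulk cells both 5p arms shared 4 of their 5 closest features, of 479 compared: miR-138-1-3p (0.657 with miR-10a-5p and 0.707 with miR-10b-5p), miR-12206-5p (0.623 and 0.645), let-7i-3p (0.621 and 0.641) and miR-146a-5p (0.571 and 0.695). The fifth was let-7b-5p for miR-10a-5p (0.577) and miR-142a-3p for miR-10b-5p (0.635). Like the members, miR-138-1-3p and miR-146a-5p had their highest bulk mean at P15, at 131 and 398 CPM.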

How the data were processed

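The deposited table holds raw counts per mature miRNA, made by the authors by trimming with fastp 0.20.0, mapping reads to miRBase and then to mm10/GRCm38 with miRDeep2, and adding candidate miRNAs. The study's methods describe no use of molecular identifiers. The 79 names listed more than once kept the entry with the largest total, and 3 identical candidates were dropped. CPM is the count scaled to a kept total of 1000000. Features with 1 CPM in 5 libraries (1072, of them 3 members) were fitted with limma 3.58.1 (voom, TMM from edgeR 4.0.16, R 4.3.3), with age, sex and fraction as group means and mouse as a random effect (within-mouse correlation 0.124), sexes averaged. TREAT tested a difference beyond 2-fold, adjusted by Benjamini-Hochberg over all features. On counts simulated without a mouse effect the code recovered known changes, which checks the code and not its power for these members. Fractions of 1 mouse are paired by the labels, and deviations of the same mouse correlated at 0.0739, against −0.0154 for other mice. Sequences and positions came from RefSeq and GENCODE M21.

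Each library is 1 mouse, so p-values cover the spread between mice. The members, lists, markers and tests were chosen with earlier results of these data known. Named features were the members, the listed miRNAs, the markers and the 5 features most correlated with each 5p arm in each fraction. Alternatives tried were no block, fixed blocks, no fold threshold, edgeR, DESeq2 1.42.0, other scalings and filters, summed entries, leaving out each mouse and adding the mouse left out.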

Additional observations from a re-analysis of the deposited data

Results flagged for a closer look

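Within 31 groups of 4 to 6 libraries of 1 age, sex and fraction in which some library reached 10 counts of a member, 8 held a library far from the others by Dixon's criterion, a criterion set to pick about 1 group in 20 by chance among independent, normally distributed values. These are raw CPM values from few counts and the groups share libraries, so the chance rate here is not known. Female mouse 5 at 8W accounted for 4 of them: miR-10a-5p at 81.7 CPM, miR-10b-5p at 168 CPM and miR-10b-3p at 3.46 CPM in bulk cells, and miR-10b-5p at 21.2 CPM in microglia, where the nearest female libraries held 32.2, 31.2, 0.212 and 7.57 CPM. Its neuronal, oligodendrocyte and endothelial marker sums in bulk cells (197979, 27323 and 16361 CPM) lay within the range of the other 8W mice. The other 4 were miR-10a-3p, at 10 to 22 counts: 4.75 CPM in microglia of P15 female mouse 4, 6.83 CPM in microglia of P15 male mouse 6, 3.91 CPM in bulk cells of P15 female mouse 6 and 1.15 CPM in bulk cells of P6 male mouse 2.

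P6 female mouse 6, left out of the comparisons, held more of both 5p arms than any of the 10 analysed P6 mice in both fractions. It had 83.9 CPM of miR-10a-5p and 19.9 CPM of miR-10b-5p in microglia, against highest values of 49.1 and 15.7 CPM, and 61.6 and 36.3 CPM in bulk cells, against 55.4 and 25.1 CPM. Its microglial library also held the highest neuronal marker sum (279340 CPM) and the lowest myeloid sum (6477 CPM) of the P6 microglia. Its oligodendrocyte sum (1483 CPM) was above all 10 analysed P6 microglial libraries and its choroid or ciliated sum (4582 CPM) above 9 of 10. Its miR-150-5p level and its endothelial, mural and erythroid sums lay within the range of those 10.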

How the results depend on the processing

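Depth limits the 3p arms and miR-10b-5p in microglia, where few counts stand behind a value, and both 5p arms rest on 1 distinguishing base. Fits with no replicate block and with a fixed replicate block for the mouse kept the 8W call of miR-10b-5p between fractions (−1.99, adjusted p = 0.0465, and −1.96, adjusted p = 0.000952), and the change of miR-10a-5p enrichment from P6 to P15 turned to 0.24 with the fixed block, 0.38 in edgeR and 0.31 in DESeq2, and the cause was not tested. With no filter the 8W value of miR-10b-5p was −1.96 (adjusted p = 0.0648), the 1 of 11 alternatives other than leaving out a mouse that lost its call. Tested against no change, values past the threshold were, for miR-10b-5p, −1.68 and −1.05 between fractions at P6 and P15, 2.35 and −1.79 between successive ages in microglia, and 1.72, −0.85 and 0.87 for P15 against P6, 8W against P15 and 8W against P6 in bulk cells; and 2.11 for miR-10a-5p in bulk cells (P15 against P6). The 8W bulk values of the miR-10a arms, described only, were −1.29 without the threshold for miR-10a-5p (8W against P15) and, for miR-10a-3p (8W against P6), 1.75 without the threshold and 2.42 in edgeR. The miR-10a-5p difference in bulk cells from P6 to P15 also passed with DESeq2 size factors (2.25), library size alone (2.30), a stricter filter (2.20) and entries of one name summed (2.21). Counting both 5p arms as 1 feature gave 0.45, 0.55 and 2.998 between fractions at P6, P15 and 8W, 1.41 and 3.18 in microglia from P15 and from P6 to 8W, and 0.10, 2.45 and 2.55 for the changes of enrichment (P6 to P15, P15 to 8W, P6 to 8W), with a sign other than that of miR-10b-5p alone between fractions, in microglia from P15 to 8W and in the last pair of changes of enrichment, and other than that of miR-10a-5p alone in the first. The bulk share from P6 to P15 was −8.67 points on summed counts. TMM scaling took r to 0.535 (5p arms, 8W microglia), 0.729 and 0.531 (miR-10a-5p between fractions, P6 and P15). Leaving out 1 mouse gave 1.52 to 2.60 for miR-10a-5p (adjusted p 0.00259 to 0.560) and 1.68 to 2.02 for miR-10b-5p in bulk cells from P6 to P15, −0.79 to 0.12 for the change of miR-10a-5p enrichment from P6 to P15 (above 0 without P6 female mouse 5), −2.17 to −1.73 for miR-10b-5p between fractions at 8W (adjusted p 0.0169 to 0.0937), and −6.56 points for the bulk share from P15 to 8W without 8W female mouse 5. Library size alone moved the median of all features from −0.17 to −0.64 in microglia from P6 to 8W (39 of 214 called features higher, against 77 of 178), and miR-10a-5p stayed at 2.92 or more. Of all features, edgeR called 83 against 49 in microglia from P15 to 8W and 47 against 31 from P6 to P15, and without a fold threshold 269 to 813 passed per comparison.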

Other observations

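miR-615-3p, which comes from the Hoxc cluster, was compared with the 5p arms across mice in bulk cells after its values were seen, so the 6 relations are given as a description with no test. With miR-10a-5p it gave r = 0.824, 0.623 and 0.827 and rho = 0.891, 0.406 and 0.587 at P6, P15 and 8W. Without the pair of mice farthest from the median, r was 0.881, 0.318 and 0.674, and on TMM-scaled values it was 0.740, 0.463 and 0.790. With miR-10b-5p it gave r = 0.387, 0.459 and 0.827 and rho = 0.248, 0.203 and 0.552 at the same ages, and the 8W value went to 0.331 without the farthest pair. The bulk library of 8W female mouse 5, highest in both 5p arms, was also the highest 8W library for miR-615-3p, at 12.8 CPM against 4.14 CPM in the next.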
